A study of Homo sapiens with 12 samples.

Results

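The genes described here encode the DNA replication machinery, and 49 of them were chosen by name: proteins that mark and license origins, the subunits of the replicative helicase and its activators, the replicative polymerases and primase, the sliding clamp with its loader and the lagging strand enzymes, 4 suppliers of deoxynucleotides, both E-type cyclins, and FAM111B. Every probe set that the platform annotation assigned to exactly 1 of these genes was taken, which gave 90 probe sets of 41097 with a single gene name, and 78 of the 90 exceeded a log2 value of 4 on at least 3 arrays. All 49 genes kept at least 1 such probe set, so 49 of the 11154 genes tested are described. The probe set with the highest mean stands for its gene in all values below unless another is named. The choice used no measured value of these arrays, although it was made with earlier results of the series known.

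The study measured RNA in HK-2 cells, a human proximal tubule epithelial line immortalized with papillomavirus oncogenes whose products act on p53 and RB, to look for expression signatures of kidney toxicity. There were 4 groups of 3 arrays, each array a separate biological replicate by its label: cells given CsA, read here as the calcineurin inhibitor cyclosporin A, for 12 h, cells given CsA for 48 h, and cells given the control vehicle for 12 h and for 48 h. The sources used here give neither the CsA dose nor the name of the vehicle. All 4 groups came from the same line, were seeded a day before exposure and were exposed close to confluence, so time of exposure and time in culture cannot be told apart.

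Origins of replication are licensed in G1, when the origin recognition complex, CDC6 and CDT1 load the MCM helicase onto DNA as an inactive double ring. At the start of S phase the kinases CDC7-DBF4 and cyclin E-CDK2 drive the loading of CDC45 and the GINS complex, which turns the ring into an active helicase, and primase, the polymerases, PCNA and its loader then copy both strands. Many of these genes are known targets of E2F transcription factors, which RB holds in check in resting cells, and the adult proximal tubule is a largely resting epithelium that re-enters the cycle after injury. In RNA from whole cultures, fewer cells in S phase and less RNA of these genes per cell cannot be told apart.

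Because the members were read out together, their promoters were searched for letters that E2F factors are known to bind. RefSeq windows on GRCh38.p14, which run from 250 bases before each annotated start to 50 bases after it, were on hand for 41 of the 49 genes and made 52 windows. The letters searched were TTTCCCGC, TTTGGCGC, TTTCGCGC and TTTGCCGC, on both strands. At least 1 of them stood in 20 of the 52 windows of the members (38.5%), in 5.01% of 13471 windows of the genes tested, in 3.31% of all 35116 windows and in 3 of 43 windows of mitosis genes (6.98%). The letters CCAAT, the site of the factor NF-Y, stood in 29 of the 52 windows (55.8%), in 35.1% of windows of the genes tested and in 74.4% of those of mitosis genes. A match is a description of the sequence and not a measured binding site. The stretches below show how the letters, in capitals, lie in 5 members that fell at 48 h in CsA, and the 90 bases before the start of RFC5, a member whose window held none of them and which had no call for CsA at 48 h. The stretches lie at different distances from the annotated start of their window, and each runs 5′ to 3′ towards the gene. Of the 3 windows of MCM7, and the 2 each of CDC7 and PCNA, 1 held a match, and that window is shown.
MCM6 (chr2:135876494-135876603, minus strand): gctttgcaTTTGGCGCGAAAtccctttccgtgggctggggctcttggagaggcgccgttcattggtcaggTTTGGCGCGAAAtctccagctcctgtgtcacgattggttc
MCM7 (chr7:100101538-100101597, minus strand): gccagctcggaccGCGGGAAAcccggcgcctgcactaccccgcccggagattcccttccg
CDC7 (chr1:91501022-91501091, plus strand): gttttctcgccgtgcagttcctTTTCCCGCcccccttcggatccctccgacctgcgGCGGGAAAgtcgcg
POLA1 (chrX:24693758-24693827, plus strand): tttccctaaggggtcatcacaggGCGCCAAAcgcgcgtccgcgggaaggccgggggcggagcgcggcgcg
PCNA (chr20:5126653-5126712, minus strand): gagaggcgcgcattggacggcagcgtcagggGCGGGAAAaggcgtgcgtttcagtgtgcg
RFC5 (chr12:118016613-118016702, plus strand): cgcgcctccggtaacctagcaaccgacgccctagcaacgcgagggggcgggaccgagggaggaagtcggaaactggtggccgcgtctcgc
MCM6 carried 4 matches, as overlapping pairs with 1 match on each strand, at 152, 148, 90 and 86 bases before the start. The stretch of CDC7 held 2 matches on opposite strands, at 68 and 34 bases before its start, and those of MCM7, POLA1 and PCNA held 1 match each. Among members with a window, 8 of the 10 that fell at 48 h and 12 of the 31 others had a match. RRM2 and FEN1 fell without a match, and MCM4, MCM5 and CCNE2 fell but had no window. The 12 others with a match had log2 differences in CsA at 48 h from -1.03 in GINS2 to 0.61 in CDC6. A relation between matches and the fall in CsA was not tested.

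Each array gave between 42.2% and 42.8% of probe sets above a log2 value of 4, and no array repeated another. Of 15 proximal tubule markers with a probe set, 6 were above 4 on all 12 arrays (SLC4A4, PDZK1, CDH6, CDH16, PAX8 and MME) and 9 were above it on none, LRP2, CUBN and AQP1 among them. None of 5 endothelial and 3 leukocyte markers passed 4 on any array. Of 7 fibroblast and mesangial markers, COL1A1 and LUM passed it on all arrays, PDGFRB on 11, DCN on 10 and 3 on none. Of 6 markers of loop, distal tubule and collecting duct, SLC12A1, AQP2 and AQP3 passed on all arrays and 3 on none. Of 4 podocyte markers, PODXL and SYNPO passed on all and 2 on none. Of 6 epithelial markers, 5 passed on all and CDH1 on none. The array of CsA at 48 h, replicate 3, stood apart: its hybridization controls had a median of 7.38 against 9.89 to 11.42 on the other 11 arrays, and its mean over the 4 measured fibroblast markers of 7.03 lay within the 48 h controls (6.87 to 7.33) while those of replicates 1 and 2 were 5.96 and 5.80. The mean of the 6 proximal tubule markers was 9.64 to 9.69 in CsA and 10.1 to 10.6 in controls at 48 h. Both replicate 1 arrays at 48 h had low poly-A controls, 3.78 and 4.13 against 8.26 to 9.99 elsewhere. Whether these had a part in the results was not tested, and values with and without replicate 3 are given.

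More of these genes passed the test between the times in vehicle-treated cells than in any other of the 4 contrasts tested. From 12 h to 48 h in control cells, 46 of the 49 genes fell and 0 rose (limma, all 12 arrays, adjusted p of 0.015 or less for each of the 46), where 23.8% of all genes tested fell and 27.4% rose. The median change of the members was -1.57 on the log2 scale, a 2.96-fold fall, against 0.03 over all genes tested. In 46 of the 49 genes all control arrays at 48 h lay below all control arrays at 12 h, which held for 28.4% of all genes. The 3 genes that did not pass the threshold were ORC5 at -0.05 ± 0.07, RFC1 at -0.05 ± 0.10 and RFC5 at 0.13 ± 0.14 (log2 change ± SE, 3 arrays a group). Here and below the SE comes from the limma fit over all 12 arrays, not from the compared arrays alone. ORC5 is an origin recognition subunit, and RFC1 and RFC5 are subunits of the clamp loader. The other probe sets of ORC5 and RFC1 did not pass either, at -0.17 and -0.08, whereas RFC5 went against 2 of its 3 probe sets: the other 2 fell by 1.79 and 2.13 (adjusted p 3.04e-05 and 4.47e-06 among all probe sets). Probe sets of GINS4, ORC2 and RPA1 also differed in whether they passed. Log2 changes were largest in ORC1 (-4.57 ± 0.36), FAM111B (-4.54 ± 0.43), GINS4 (-3.76 ± 0.64), RRM2 (-3.20 ± 0.27), CDC45 (-3.15 ± 0.35) and CCNE2 (-2.98 ± 0.20), and smallest among those called in POLD2 (-0.41 ± 0.12) and ORC2 (-0.42 ± 0.12). ORC1, FAM111B and GINS4 had arrays under 4 at 48 h, where the background correction flattens values, so the size of their falls is uncertain. With the replicate number as a block, since numbers pair the control arrays, 46 members again passed, beside 6327 of all 11154 genes in either direction.

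**Figure D1:**
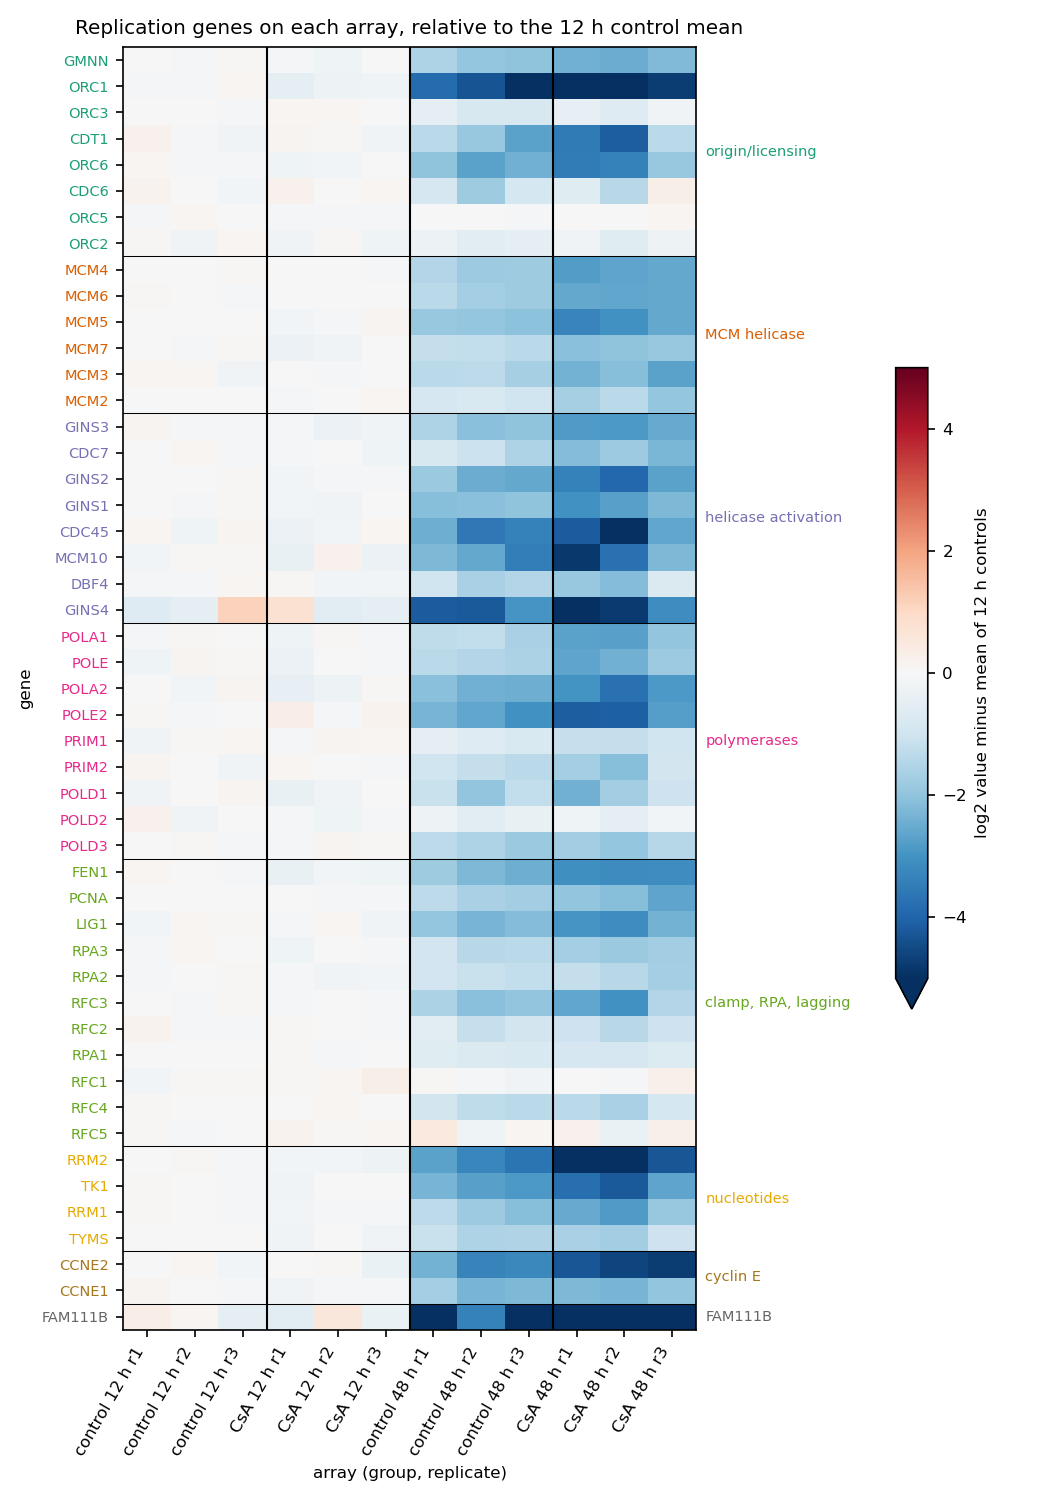
Log2 value of each of the 49 genes on each of the 12 arrays, minus the mean of the 3 control arrays at 12 h, with rows grouped by role and r1 to r3 marking the replicates; differences below -5 are drawn in the darkest blue. The 6 arrays at 12 h are pale apart from GINS4, the control arrays at 48 h are blue in all but a few rows such as ORC5, RFC1 and RFC5 (drawn from 1 of its 3 probe sets), and the CsA arrays at 48 h are darker still in the MCM rows, RRM2 and CCNE2, with replicate 3 paler in CDT1, CDC6 and DBF4.

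**Figure D2:**
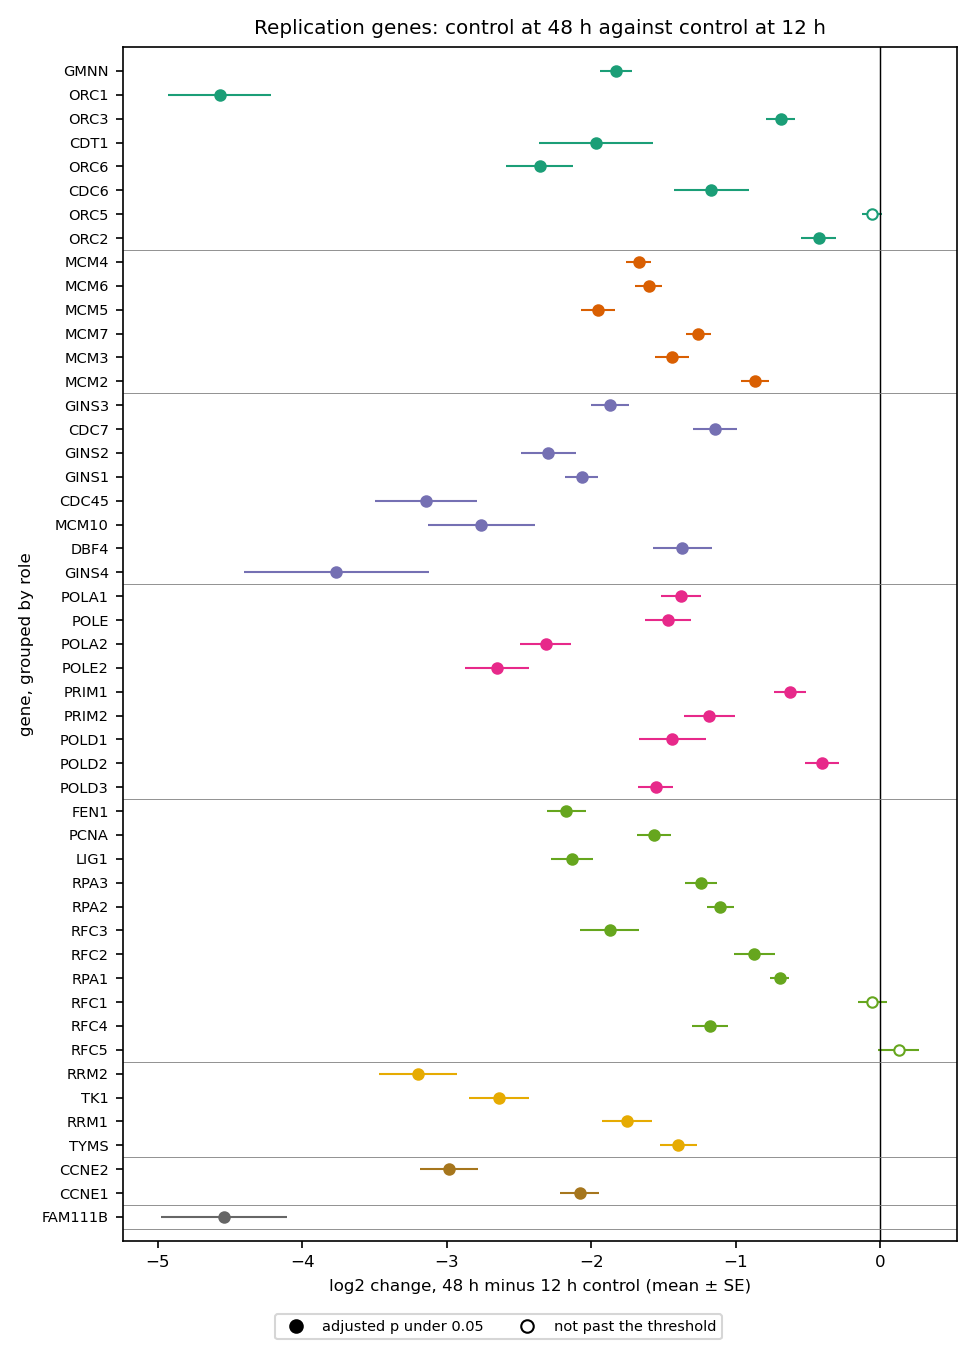
Log2 change from 12 h to 48 h in control cells for each of the 49 genes, grouped by role, for 3 against 3 arrays. Bars are the SE of the limma fit over all 12 arrays. Filled points passed a limma adjusted p of 0.05. All points but ORC5, RFC1 and RFC5 are filled and lie below 0, from -0.41 in POLD2 to -4.57 in ORC1; the point of RFC5 goes against its other 2 probe sets, at -1.79 and -2.13.

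CsA at 12 h gave no call among these genes. The median log2 difference of CsA from control was -0.09, against -0.0068 over all genes. Of the 49 genes 38 were below 0, beside 52.9% of all genes. The lowest adjusted p of a member was 0.649, in FEN1 (-0.24 ± 0.11), and 0 of the 49 genes had an unadjusted p under 0.05, beside 865 of all 11154. Over all genes, 1 of 11154 passed in either direction (0.00897%). In ORC1, GINS2, GINS3, RPA2, FEN1, RRM2 and TYMS all 3 CsA arrays lay below all 3 control arrays, 7 of 49 where 6.51% of all genes did so. Replicate numbers pair the arrays at 12 h, and with the number as a block 0 members passed, with a lowest adjusted p of 0.249 and 0.117% of all genes called lower.

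At 48 h the replicative helicase was lower in CsA than in control cells. Of the 49 genes, 13 fell and 0 rose (26.5%, limma fit over all 12 arrays with a weight for each group), where 3.65% of all genes tested fell and 1.46% rose. The 13 were all 6 subunits of the MCM ring (MCM2 to MCM7), the helicase activators GINS3 and CDC7, the polymerase subunit POLA1, the clamp PCNA, the flap nuclease FEN1, the ribonucleotide reductase subunit RRM2 and cyclin E2 (CCNE2). The median log2 difference over all 49 was -0.67, a 1.59-fold lower level, against -0.0050 over all genes. Of the 49 genes 43 were below 0, beside 50.8% of all genes. In 21 members, the 13 included, all CsA arrays at 48 h lay below all controls at 48 h, and in 0 above, where 15.8% of all genes lay below. The other 8 were GMNN, GINS1, GINS2, POLA2, PRIM1, POLE, RPA3 and LIG1.

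These calls rest on the spread of all 12 arrays, and the members varied more than most genes at 48 h. Their median SD was 0.25 in controls and 0.35 in CsA at 48 h, against 0.15 and 0.20 over all genes, while at 12 h it was 0.09 and 0.10 against 0.10 and 0.11. Fitted on the 6 arrays at 48 h alone, 0 of the 49 passed (0.287% of all genes were lower), 23 had an unadjusted p under 0.05, and the lowest adjusted p was 0.0547, in MCM4. Without the replicate 3 array of CsA at 48 h, 32 members fell (9.65% of all genes), the 13 among them, with a median log2 difference of -0.80, and 35 had both remaining CsA arrays below all controls (27% of all genes). The 48 h arrays alone without that array gave 13 members (2.9% of all genes): MCM3 to MCM7, GINS3, POLA1 and RRM2, which the fit over 12 arrays also called, and GINS1, POLE, POLE2, LIG1 and TK1. Without replicate 1 of CsA at 48 h 0 members passed by limma and 20 had an unadjusted p under 0.05. Without both replicate 1 arrays at 48 h these counts were 0 and 16. In both fits 0% of all genes were called lower. Without replicate 2 of CsA at 48 h MCM2 and MCM4 passed by limma (0.484% of all genes were lower), and 19 members had an unadjusted p under 0.05. In the fit over all 12 arrays 26 members and 2542 of all 11154 genes had an unadjusted limma p under 0.05. For fits with fewer arrays, here and below, unadjusted counts over all genes are not given.

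**Figure D3:**
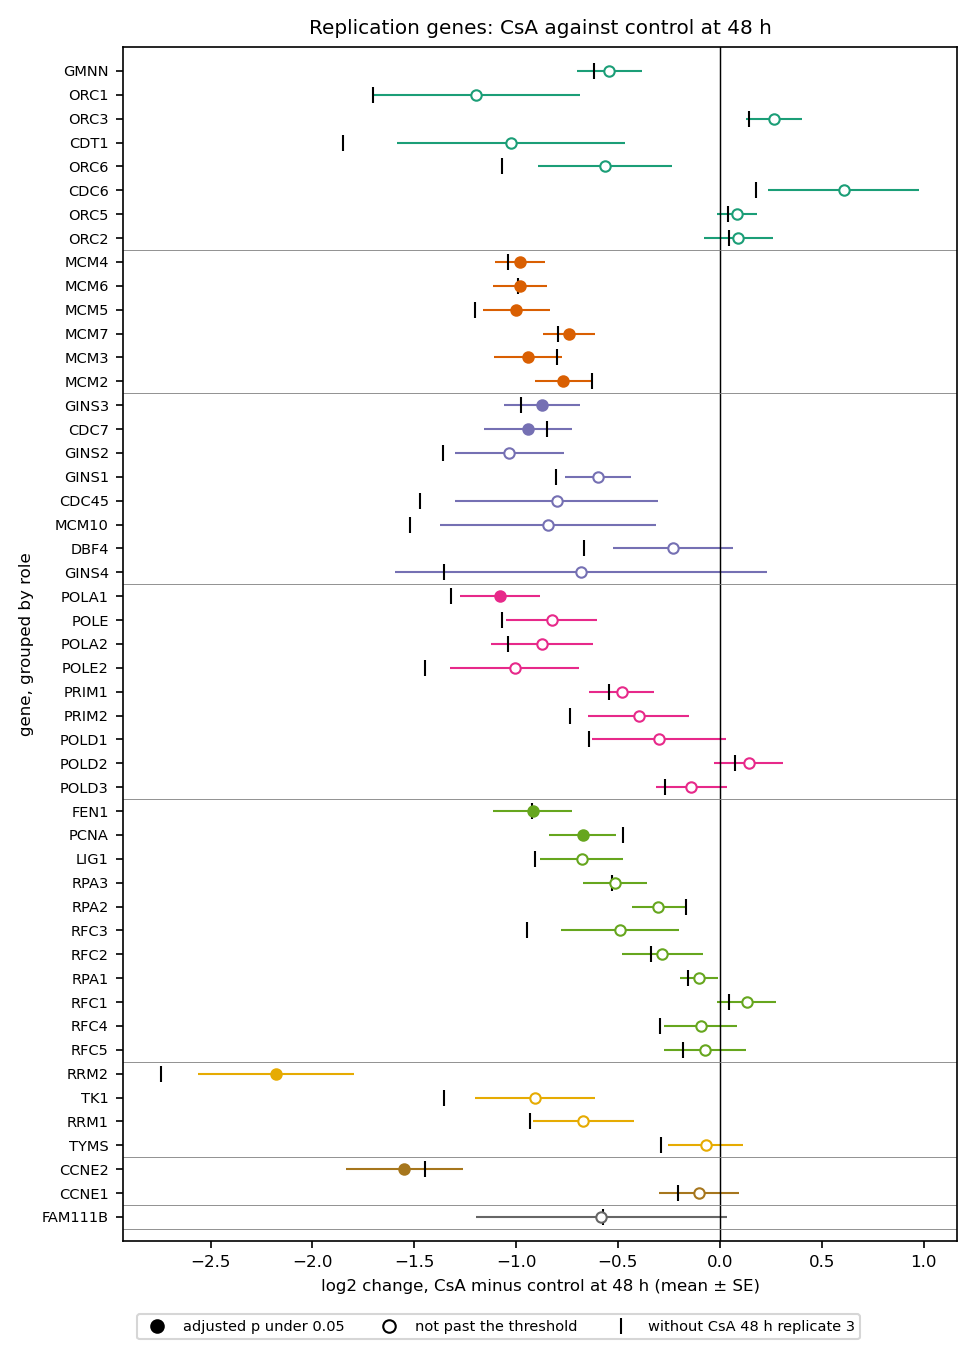
Log2 difference between CsA and control at 48 h for each of the 49 genes, as mean ± SE of 3 against 3 arrays, grouped by role; filled points passed an adjusted p of 0.05 and the black ticks give the difference without replicate 3 of CsA at 48 h. The 6 MCM genes lie together between -1.0 and -0.74, with ticks close to their points, while the ticks of CDT1, CDC45, MCM10 and TK1 lie well to the left of theirs.

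The comparisons of times and of treatments at 48 h share the 48 h control arrays, so their values are set side by side below for each role, and no relation between them is drawn. Log2 differences are given ± SE, array values are in the order of replicates 1, 2 and 3, and levels of different genes on these arrays are not comparable.

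Among the 8 genes of origin recognition and licensing, 7 fell with time in controls and 0 passed for CsA at 48 h, where 2 had an unadjusted p under 0.05. Over all 11154 genes 2542 had an unadjusted limma p under 0.05 for CsA at 48 h, 1457 of them lower. Geminin (GMNN), which binds CDT1 and blocks relicensing, read 12.28, 12.24 and 12.37 in controls and 12.21, 12.10 and 12.32 in CsA at 12 h. At 48 h GMNN read 10.75, 10.38 and 10.28 in controls and 9.88, 9.82 and 10.08 in CsA. Its CsA arrays lay below every control at 48 h without overlap, at a log2 difference of -0.54 ± 0.16 (adjusted p 0.0759), beside -1.83 ± 0.11 with time. ORC1, the subunit of the origin recognition complex that is known to be cycle regulated, read 9.11, 9.10 and 9.28 in controls and 8.67, 8.92 and 8.94 in CsA at 12 h. At 48 h ORC1 read 5.31, 4.86 and 3.60 in controls and 2.43, 3.34 and 4.41 in CsA, values that overlap and lie near background. ORC1's difference in CsA at 48 h was -1.20 ± 0.51 (adjusted p 0.191), and -1.70 without replicate 3 (adjusted p 0.0255). CDT1, which brings the MCM ring to origins, read 10.27, 9.97 and 9.87 in controls and 10.16, 10.09 and 9.85 in CsA at 12 h. At 48 h CDT1 read 8.68, 8.15 and 7.37 in controls, and 6.52, 5.91 and 8.69 in CsA. The CsA arrays of CDT1 divided into replicates 1 and 2, below every control, and replicate 3, just above the highest control. Its log2 difference was -1.03 ± 0.56 (adjusted p 0.308) with replicate 3, and -1.85 without it (adjusted p 0.00733). ORC3, another subunit of the origin recognition complex, read 12.06, 12.08 and 11.99 in controls and 12.14, 12.14 and 12.06 in CsA at 12 h, and 11.56, 11.25 and 11.26 in controls and 11.62, 11.38 and 11.87 in CsA at 48 h. ORC3 and CDC6, the ATPase that works with ORC in loading MCM, had positive differences at 48 h, 0.27 ± 0.14 and 0.61 ± 0.37, and neither passed (adjusted p 0.285 and 0.365). CDC6 read 9.5, 8.58 and 9.46 in controls and 9.75, 8.96 and 10.64 in CsA at 48 h. On its second probe set CDC6 read 9.39, 8.37 and 9.16 in controls and 9.54, 8.70 and 9.83 in CsA at 48 h. Replicate 3 was above every 48 h control on both probe sets. ORC2, ORC5 and ORC6, the other subunits measured, differed by 0.09 ± 0.17, 0.08 ± 0.10 and -0.56 ± 0.33, and ORC6 passed without replicate 3 (-1.07, adjusted p 0.0045).

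All 6 genes of the MCM helicase, the ring that unwinds DNA ahead of the fork, fell with CsA at 48 h and with time. MCM4 read 12.20, 12.20 and 12.26 in controls and 12.25, 12.20 and 12.17 in CsA at 12 h. At 48 h MCM4 read 10.76, 10.41 and 10.46 in controls and 9.44, 9.58 and 9.68 in CsA, with no overlap and a gap wider than the spread within either group. The difference was -0.98 ± 0.12, a 1.97-fold lower level (adjusted p 0.00585), beside -1.67 ± 0.09 with time. MCM6 read 12.45, 12.39 and 12.35 in controls and 12.42, 12.38 and 12.39 in CsA at 12 h. At 48 h MCM6 read 11.06, 10.69 and 10.62 in controls and 9.82, 9.78 and 9.84 in CsA. The CsA values of MCM6 lay close together and apart from the controls, and the difference was -0.98 ± 0.13, 1.97-fold (adjusted p 0.00712), beside -1.60 ± 0.09 with time. MCM5 read 11.57, 11.53 and 11.52 in controls and 11.42, 11.45 and 11.66 in CsA at 12 h. At 48 h MCM5 read 9.66, 9.60 and 9.5 in controls and 8.24, 8.52 and 8.99 in CsA. Replicate 3 was the highest of the CsA arrays in MCM5 and still below every control, with a difference of -1.0 ± 0.16, 2-fold (adjusted p 0.012), beside -1.95 ± 0.12 with time. MCM7 read 12.29, 12.24 and 12.33 in controls and 12.01, 12.12 and 12.27 in CsA at 12 h. At 48 h MCM7 read 11.11, 11.05 and 10.92 in controls and 10.19, 10.27 and 10.40 in CsA, again without overlap. The difference in MCM7 was -0.74 ± 0.13, 1.67-fold (adjusted p 0.0137), beside -1.26 ± 0.09 with time. MCM3 differed by -0.94 ± 0.17 (adjusted p 0.0148) and MCM2 by -0.77 ± 0.14 (adjusted p 0.015) at 48 h. In MCM2 and MCM3 replicate 3 was the lowest CsA array. The falls with time were -1.44 ± 0.12 in MCM3 and -0.87 ± 0.10 in MCM2, the smallest of the 6. On the 48 h arrays alone the adjusted p of the 6 genes lay between 0.0547 and 0.0755, all above the threshold.

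**Figure D4:**
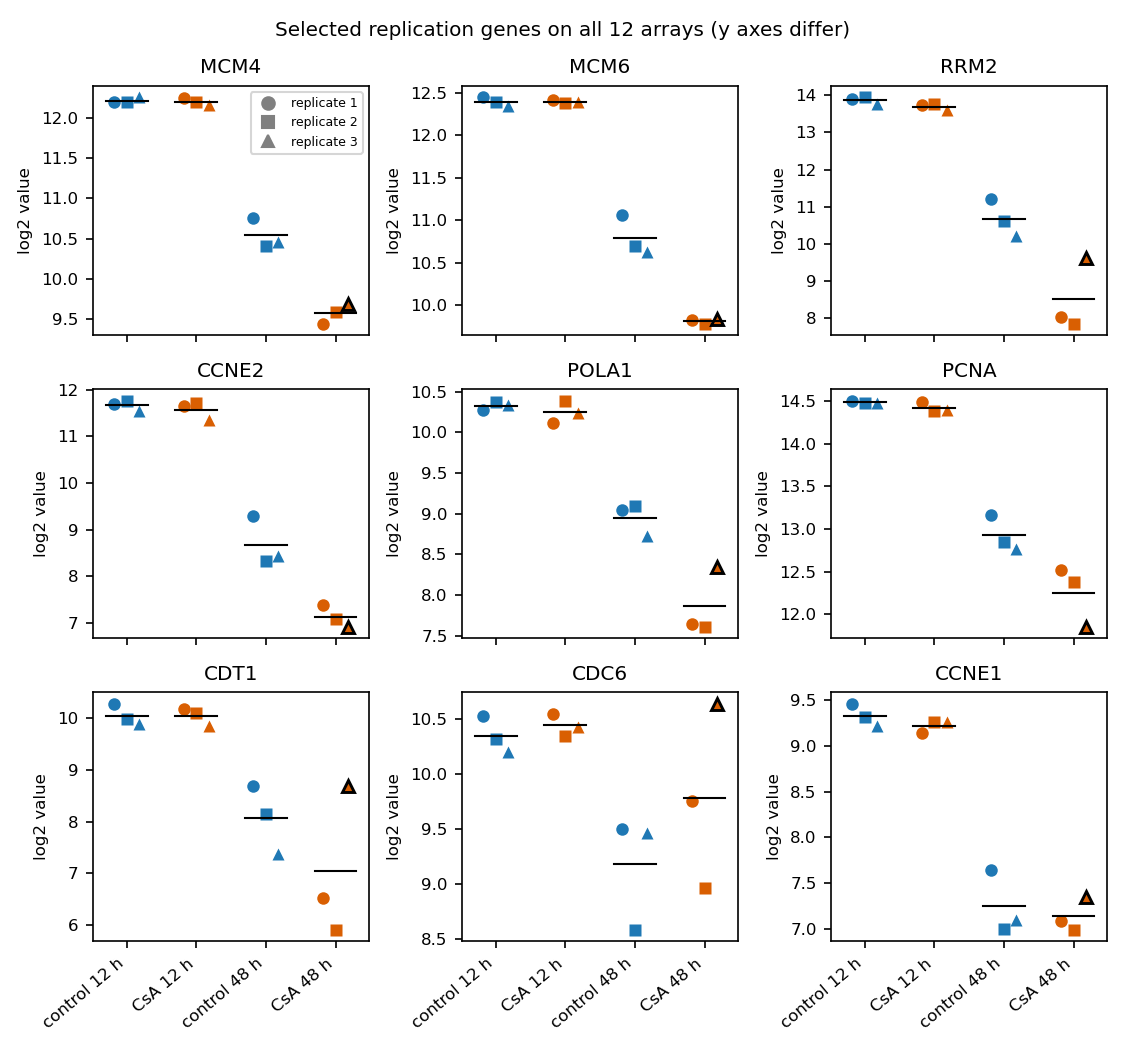
Log2 values of 9 replication genes on all 12 arrays, with control arrays in blue, CsA arrays in orange, marker shape for the replicate, a black line at each group mean and replicate 3 of CsA at 48 h outlined; the y axes differ between genes. MCM4 and MCM6 fall in 2 tight steps, PCNA and CCNE2 have replicate 3 lowest, and CDT1 and CDC6 have replicate 3 above the 48 h controls.

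Of the 8 genes that activate the helicase, all fell with time, and GINS3 and CDC7 fell with CsA at 48 h. GINS3, a subunit of the GINS complex that joins CDC45 and MCM in the active helicase, read 9.51, 9.31 and 9.31 in controls and 9.29, 9.09 and 9.20 in CsA at 12 h. At 48 h GINS3 read 7.85, 7.29 and 7.38 in controls and 6.56, 6.49 and 6.84 in CsA, without overlap. The difference in GINS3 was -0.87 ± 0.19, 1.83-fold (adjusted p 0.0273), beside -1.87 ± 0.13 with time. CDC7, the kinase that phosphorylates MCM to fire origins, read 10.02, 10.11 and 9.94 in controls and 9.96, 10.02 and 9.79 in CsA at 12 h. At 48 h CDC7 read 9.23, 8.93 and 8.47 in controls and 7.87, 8.19 and 7.75 in CsA, with replicate 3 lowest. Its difference was -0.94 ± 0.22, 1.92-fold (adjusted p 0.0342), beside -1.14 ± 0.15 with time. DBF4, the activating subunit of CDC7, differed by -0.23 ± 0.29 (adjusted p 0.698), and by -0.67 without replicate 3 (adjusted p 0.0314). GINS2 read 11.08, 11.08 and 11.14 in controls and 10.97, 11 and 11.01 in CsA at 12 h, and 9.24, 8.62 and 8.55 in controls and 7.74, 7.16 and 8.42 in CsA at 48 h. GINS1 read 12.39, 12.31 and 12.42 in controls and 12.23, 12.19 and 12.39 in CsA at 12 h, and 10.24, 10.29 and 10.38 in controls and 9.36, 9.65 and 10.12 in CsA at 48 h. Both genes kept all CsA arrays below all controls at 48 h, with replicate 3 closest to them. Their differences of -1.03 ± 0.27 and -0.60 ± 0.16 missed the threshold (adjusted p 0.0527 and 0.0613) and passed without replicate 3, at -1.36 and -0.80. CDC45 and MCM10, which helps CDC45 bind, fell far with time (-3.15 ± 0.35 and -2.76 ± 0.37). In CsA at 48 h CDC45 read 4.71, 3.77 and 6.25 against 6.40, 5.28 and 5.46 in controls, so that its replicates 1 and 2 were low and replicate 3 lay within the controls. MCM10 read 4.03, 5.14 and 6.62 in CsA and 6.62, 6.31 and 5.39 in controls. The differences in CDC45 and MCM10 were -0.80 ± 0.50 and -0.84 ± 0.53, and -1.47 and -1.52 without replicate 3, and their size is uncertain because each had a CsA array near or under 4. The other 2 probe sets of MCM10 gave -1.50 (adjusted p 0.046) and -0.70 (adjusted p 0.524). GINS4 differed by -0.68 ± 0.91 on arrays near background.

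All 9 genes of the polymerases and primase fell with time, and POLA1 fell with CsA at 48 h. POLA1, the catalytic subunit of DNA polymerase alpha, read 10.27, 10.37 and 10.33 in controls and 10.11, 10.39 and 10.24 in CsA at 12 h. At 48 h POLA1 read 9.04, 9.09 and 8.72 in controls and 7.65, 7.61 and 8.35 in CsA, with replicate 3 nearest the controls but below them. The difference was -1.08 ± 0.20, 2.11-fold (adjusted p 0.0152), beside -1.38 ± 0.14 with time. POLE, the catalytic subunit of the leading strand polymerase epsilon, read 8.95, 9.32 and 9.23 in controls and 8.86, 9.17 and 9.06 in CsA at 12 h. At 48 h POLE read 7.82, 7.69 and 7.58 in controls and 6.52, 6.75 and 7.35 in CsA. Its difference was -0.83 ± 0.22 (adjusted p 0.0601), with separate groups and no call. POLA2, the second subunit of polymerase alpha, read 9.67, 9.55 and 9.80 in controls and 9.26, 9.41 and 9.75 in CsA at 12 h, and 7.58, 7.26 and 7.23 in controls and 6.68, 5.95 and 6.82 in CsA at 48 h. POLE2, the second subunit of polymerase epsilon, read 10.05, 9.96 and 10.02 in controls and 10.33, 9.93 and 10.17 in CsA at 12 h, and 7.69, 7.40 and 6.98 in controls and 5.89, 5.93 and 7.24 in CsA at 48 h. POLA2 had separate groups at 48 h, while in POLE2 replicate 3 lay within the controls. Their differences were -0.87 ± 0.25 and -1.01 ± 0.32 (adjusted p 0.0718 and 0.0934), beside -2.32 ± 0.18 and -2.65 ± 0.22 with time. The primase subunits PRIM1 and PRIM2 differed by -0.48 ± 0.16 and -0.40 ± 0.25. The subunits of the lagging strand polymerase delta, POLD1, POLD2 and POLD3, differed by -0.30 ± 0.33, 0.14 ± 0.17 and -0.14 ± 0.17, none past the threshold with or without replicate 3. Without replicate 3, POLE, POLA2, POLE2, PRIM1 and PRIM2 passed as well as POLA1.

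In the group of clamp, clamp loader, RPA and lagging strand enzymes, 9 of 11 genes fell with time and 2 fell with CsA at 48 h. FEN1, the nuclease that trims flaps of Okazaki fragments, read 12.18, 12.05 and 12.01 in controls and 11.69, 11.94 and 11.87 in CsA at 12 h. At 48 h FEN1 read 10.29, 9.82 and 9.62 in controls and 9.03, 8.95 and 8.99 in CsA, with the 3 CsA arrays close together below the controls. The difference was -0.92 ± 0.19, 1.89-fold (adjusted p 0.0255), beside -2.17 ± 0.14 with time, and with the replicate number as a block its adjusted p was 0.0532. PCNA, the sliding clamp, read 14.51, 14.48 and 14.48 in controls and 14.49, 14.39 and 14.40 in CsA at 12 h. At 48 h PCNA read 13.17, 12.85 and 12.76 in controls and 12.52, 12.38 and 11.85 in CsA, with replicate 3 lowest. Its difference was -0.67 ± 0.17, 1.59-fold (adjusted p 0.0437), and 10 of the 12 fits with 1 array left out lost this call. LIG1, the ligase that joins Okazaki fragments, read 9.28, 9.52 and 9.49 in controls and 9.35, 9.54 and 9.26 in CsA at 12 h, and 7.49, 7.12 and 7.28 in controls and 6.48, 6.31 and 7.07 in CsA at 48 h. RPA3, a subunit of the single-strand binding complex RPA, read 12.87, 13.06 and 12.98 in controls and 12.76, 12.95 and 12.93 in CsA at 12 h, and 12.01, 11.58 and 11.61 in controls and 11.28, 11.12 and 11.25 in CsA at 48 h. Both had separate groups at 48 h, with differences of -0.68 ± 0.20 and -0.51 ± 0.16 that missed the threshold (adjusted p 0.0833 and 0.085) and passed without replicate 3. RPA1 and RPA2 differed by -0.10 ± 0.09 and -0.30 ± 0.13. The clamp loader subunits RFC1 to RFC5 differed by 0.13 ± 0.15, -0.28 ± 0.20, -0.49 ± 0.29, -0.09 ± 0.18 and -0.07 ± 0.20 in that order, and of these RFC3 passed without replicate 3 (-0.95, adjusted p 0.00561).

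All 4 genes of nucleotide supply fell with time, and RRM2 fell in CsA at 48 h. RRM2, the cycle regulated small subunit of ribonucleotide reductase, read 13.91, 13.95 and 13.78 in controls and 13.73, 13.76 and 13.61 in CsA at 12 h. At 48 h RRM2 read 11.20, 10.62 and 10.21 in controls and 8.03, 7.84 and 9.62 in CsA. Replicates 1 and 2 lay over 2 log2 units below the lowest control and replicate 3 between them and the controls. The difference was -2.18 ± 0.38, 4.53-fold (adjusted p 0.0147), beside -3.20 ± 0.27 with time, and it was -2.74 without replicate 3. On the second RRM2 probe set replicate 3 read 10.28, within the controls (9.48 to 10.30), and the difference was -1.16 (adjusted p 0.211). With the mean of its probe sets RRM2 differed by -1.67 and lost its call (adjusted p 0.0524). TK1, the S phase thymidine kinase, read 11.73, 11.67 and 11.62 in controls and 11.49, 11.69 and 11.70 in CsA at 12 h, and 9.33, 8.97 and 8.81 in controls and 7.89, 7.47 and 9.03 in CsA at 48 h. RRM1, the large subunit of the reductase, read 12.70, 12.65 and 12.58 in controls and 12.52, 12.58 and 12.57 in CsA at 12 h, and 11.33, 10.84 and 10.50 in controls and 10.11, 9.81 and 10.74 in CsA at 48 h. On these probe sets replicates 1 and 2 of CsA were below every control and replicate 3 was within them in both genes. TK1 and RRM1 differed by -0.91 ± 0.29 and -0.67 ± 0.25 (adjusted p 0.101 and 0.141), and by -1.36 and -0.93 without replicate 3 (adjusted p 0.0018 and 0.013). On the second probe set of each, replicate 3 was also below every control, at 8.49 against 8.77 to 9.28 in TK1 and 8.82 against 9.52 to 9.79 in RRM1. Those probe sets passed among all probe sets tested, at -1.09 in TK1 (adjusted p 0.0351) and -0.83 in RRM1 (adjusted p 0.0207). TYMS, thymidylate synthase, read 14.32, 14.36 and 14.31 in controls and 14.16, 14.30 and 14.14 in CsA at 12 h. At 48 h TYMS read 13.21, 12.77 and 12.82 in controls and 12.71, 12.59 and 13.30 in CsA, and the groups overlapped. Its difference was -0.07 ± 0.18 (adjusted p 0.866), beside -1.40 ± 0.13 with time.

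The E-type cyclins, partners of CDK2 at the entry to S phase, both fell with time, and CCNE2 fell with CsA at 48 h. CCNE2 read 11.69, 11.77 and 11.54 in controls and 11.66, 11.71 and 11.35 in CsA at 12 h. At 48 h CCNE2 read 9.29, 8.33 and 8.43 in controls and 7.38, 7.09 and 6.92 in CsA, and replicate 3 was the lowest of all. The difference was -1.55 ± 0.29, 2.93-fold (adjusted p 0.0156), beside -2.98 ± 0.20 with time. CCNE1 read 9.46, 9.31 and 9.22 in controls and 9.14, 9.26 and 9.26 in CsA at 12 h. At 48 h CCNE1 read 7.64, 7.00 and 7.10 in controls and 7.09, 6.99 and 7.35 in CsA, with overlapping groups. Its difference was -0.10 ± 0.20 (adjusted p 0.807), beside -2.08 ± 0.14 with time, and the contrast between the cyclins was not tested. FAM111B, a protease that is paralogous to the PCNA-binding protein FAM111A, read 8.15, 7.93 and 7.39 in controls and 7.31, 8.39 and 7.51 in CsA at 12 h. At 48 h FAM111B read 2.75, 4.45 and 2.65 in controls and 2.71, 2.71 and 2.69 in CsA, which is under 4 on all arrays but 1 control. Its difference of -0.58 ± 0.62 in CsA therefore compares values near background (adjusted p 0.63).

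The replicate 3 array of CsA at 48 h held different positions in different roles. It lay below all 48 h controls in 22 of the 49 genes, within them in 13 and above them in 14. Over all 11154 genes these counts were 3508, 2898 and 4748, so above all controls was its most frequent position. In the MCM helicase it lay below all controls in 6 of 6 genes and on 11 of 12 probe sets, and the median of its distance from the control mean was -0.91, beside -0.90 for replicates 1 and 2. In origin recognition and licensing it lay above all controls in 6 of 8 genes (CDC6, CDT1, ORC2, ORC3, ORC5 and ORC6) and on 8 of 12 probe sets, at a median of 0.32 beside -0.29 for replicates 1 and 2. In helicase activation the medians were 0.16 and -1.17, in the polymerases and primase -0.12 and -0.74, and in nucleotide supply -0.08 and -1.14. The exception in MCM4 read 9.56 in replicate 3, within its controls of 9.48 to 9.61. Probe sets of 1 gene differed in the position of replicate 3 in 11 genes (MCM4, MCM10, ORC2, ORC5, POLA2, RFC3, RFC5, RPA1, RRM1, RRM2 and TK1). In ORC6, CDT1, DBF4, PRIM2, RFC3 and TYMS replicates 1 and 2 lay below every control and replicate 3 above every control. In the 42 mitosis genes measured (kinesins, kinetochore and spindle genes) replicate 3 lay above all controls in 32, above replicates 1 and 2 in 42, at a median of 0.80 beside -1.24. Over all 11154 genes replicate 3 lay above replicates 1 and 2 in 52.8%, and in 77.6% of the members.

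**Figure D5:**
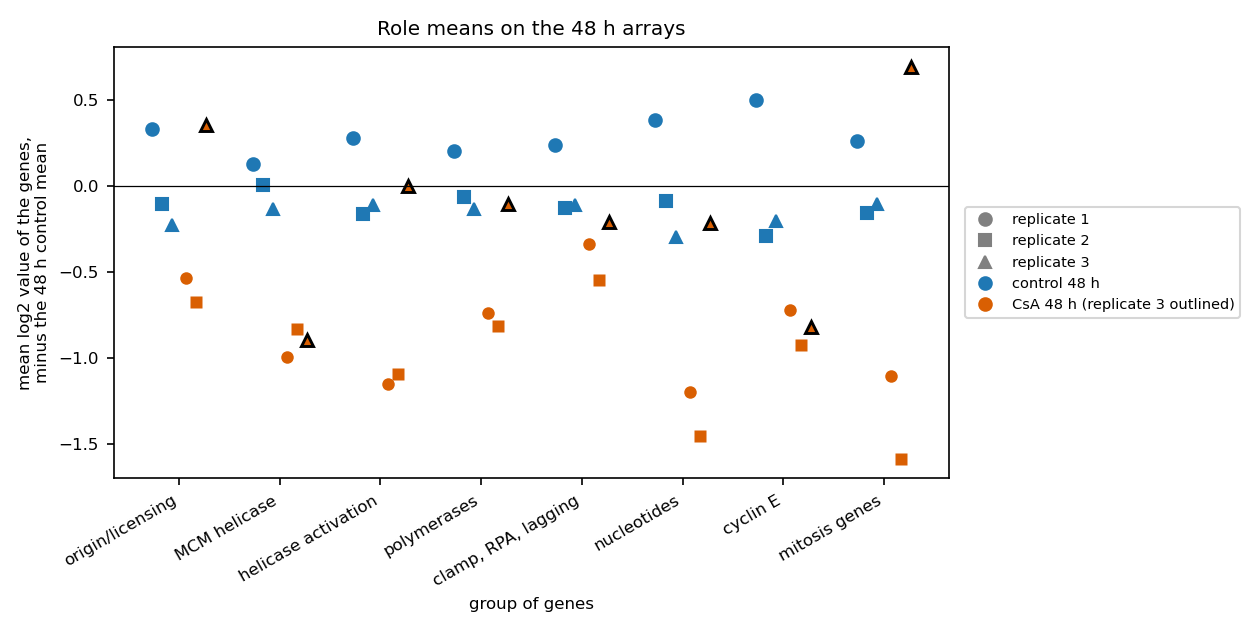
Mean log2 value of the genes of each role on each 48 h array, minus the mean of the 3 control arrays at 48 h, with control arrays in blue, CsA arrays in orange, marker shape for the replicate and replicate 3 of CsA outlined; mitosis genes are shown beside the 7 roles with over 1 gene. All 3 CsA arrays lie together below the controls for the MCM helicase and cyclin E, while replicate 3 is above the control mean for licensing and mitosis and next to it for helicase activation.

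The change in the CsA effect from 12 h to 48 h was tested as a difference of differences. It passed for 3 of the 49 genes, all MCM subunits and all lower: MCM4 at -0.97 ± 0.14 (adjusted p 0.0278), MCM6 at -0.98 ± 0.15 (adjusted p 0.032) and MCM5 at -0.97 ± 0.19 (adjusted p 0.0499), where 0.592% of all genes passed lower. Their CsA effects at 12 h had been -0.01 ± 0.07, 0.00 ± 0.08 and -0.03 ± 0.09. MCM2, MCM3, RRM2, POLA1 and CCNE2 had adjusted p between 0.0561 and 0.0708. Blocking on replicate number, within each time, let 5 genes pass (MCM2, MCM3, MCM4, MCM6 and CCNE2; 2.12% of all genes), while MCM5 lost its call (adjusted p 0.0772). Without replicate 3 of CsA at 48 h, 19 passed (3.46% of all genes), and without replicate 1 or 2 of CsA at 48 h 0 passed by limma, with 14 at an unadjusted p under 0.05 in each case. Leaving out replicate 1 or 2 of CsA at 12 h, or replicate 1 or 3 of control at 12 h, also gave 0 by limma. Of the members, 21 to 23 then had an unadjusted p under 0.05. With all 12 arrays, 23 members and 1882 of all 11154 genes did so. Leaving out replicate 3 of CsA at 12 h or replicate 2 of control at 48 h gave 1 (MCM4, with 0.152% and 0.161% of all genes lower). Leaving out replicate 2 of control at 12 h or replicate 1 of control at 48 h gave 2 (MCM4 and MCM6, 0.484% and 0.0628%). Leaving out replicate 3 of control at 48 h gave 8 (1.6%).

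For 24 genes more than 1 probe set passed the filter, and in 22 of them all probe sets had the same sign in CsA at 48 h; ORC2 and RFC1, with small differences, were the exceptions. The 4 probe sets of MCM4 ranged from -1.30 to -0.61, the 2 of MCM6 were -1.04 and -0.98, and the 2 of CCNE2 were -2.36 and -1.55. Tested one by one, 19 of the 78 probe sets of the members were lower at 48 h in CsA and 0 higher, where 2.47% of 20625 probe sets were lower. In 8 genes some probe sets passed and others did not: MCM4, MCM5, MCM6, MCM7, MCM10, RRM1, RRM2 and TK1. The second probe sets of MCM5, MCM6 and MCM7 gave -1.07, -1.04 and -0.59 (adjusted p 0.0564, 0.0658 and 0.116), and 2 of the 4 of MCM4 passed.

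Other genes of the pathway moved with time as well, and some passed with CsA. Of 27 other replication proteins, 21 fell in controls from 12 h to 48 h, and in CsA at 48 h 2 fell (7.41%) and 1 rose. Over all genes tested, 23.8% fell in the controls, and 3.65% fell and 1.46% rose in CsA at 48 h. MCM9, a helicase of recombination repair, fell from 9.05 ± 0.13 to 8.25 ± 0.06 (SD, n = 3), a log2 difference of -0.80 (limma adjusted p 0.0155), with no call in time (0.08). RNASEH2B, a subunit of the nuclease that removes ribonucleotides, fell by 0.79 (limma adjusted p 0.0280), and TOP1, the topoisomerase that relieves twist ahead of the fork, rose by 0.44 (limma adjusted p 0.0340). Of 8 genes of chromatin assembly and maintenance, 8 fell with time and 2 with CsA: the histone chaperone NASP (-0.84) and UHRF1 (-0.98), which recruits the maintenance methyltransferase. ASF1B, a histone chaperone, differed by -2.19 with a large spread (4.33 ± 1.72 in CsA, SD, n = 3; limma adjusted p 0.0675). Of 12 further genes of nucleotide supply, 7 fell and 2 rose with time and 0 passed with CsA by limma. Of these 12, 4 had an unadjusted p under 0.05 with CsA, beside 2542 of all 11154 genes. DUT at -0.60, PAICS at -0.30 and DCK at -0.37 had the smallest p. Without replicate 3 of CsA at 48 h, 8 of the 27 other replication proteins, 5 of the 8 chromatin genes and 3 of the 12 nucleotide genes fell. The 3 were DUT, PAICS and DCK (limma adjusted p 0.0233, 0.0208 and 0.0398). Over all genes 9.65% fell in that fit. Without replicate 1, or without replicate 2, of CsA at 48 h, 0 genes of these 3 lists passed by limma; at an unadjusted p under 0.05 there were 5, 3 and 0 in that order of lists without replicate 1, and 9, 3 and 2 without replicate 2. Without replicate 1, or replicate 2, of control at 48 h 1 of the other replication proteins and 1 chromatin gene fell (1.84% and 1.44% of all genes). Without replicate 3 of control at 48 h 3 of the other replication proteins fell and 1 rose. In that fit 2 chromatin genes and 1 nucleotide gene fell, beside 4.38% of all genes.

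Of 19 genes of E2F, RB and the S phase kinases, 12 fell and 1 rose with time, beside 23.8% and 27.4% of all genes. With CsA at 48 h 3 fell (15.8%, beside 3.65% of all genes). E2F8, a repressor of E2F targets, fell from 7.41 ± 0.13 to 5.18 ± 0.29 (SD, n = 3; log2 difference -2.23, limma adjusted p 0.00343). SKP2, the ubiquitin ligase subunit that degrades p27, fell by 0.87, and TFDP1, the partner of E2F proteins, fell by 0.42. Without replicate 3 of CsA at 48 h, 7 of the 19 fell (36.8%, beside 9.65% of all genes). Among them were CCNA2, an S phase cyclin (-1.43, limma adjusted p 0.00685), and CDK2, its kinase (-0.46, limma adjusted p 0.012). Without replicate 1 of CsA at 48 h 0 of the 19 passed by limma (3 at an unadjusted p under 0.05), and without replicate 2 there was 1. E2F1, an activator, fell by 1.61 with time, and in CsA at 48 h it read 6.35 ± 0.28 beside 6.23 ± 0.03 (SD, n = 3; 0.12, limma adjusted p 0.857). RB1 did not pass in either contrast, at -0.03 with time and -0.13 with CsA at 48 h (limma adjusted p 0.610). Mitosis genes, compared here as another class of cell cycle genes, fell with time in 42 of 42, where 23.8% of all genes fell. Their median was -2.42 beside -1.57 in the replication genes. In CsA at 48 h 2 of 42 mitosis genes fell (4.76%, median -0.58), beside 13 of 49 replication genes (26.5%, median -0.67) and 3.65% of all genes tested. Without replicate 3 these were 37 of 42 and 32 of 49, beside 9.65% of all genes. Without replicate 1, or without replicate 2, of CsA at 48 h 0 mitosis genes passed by limma, with 2 at an unadjusted p under 0.05 in each case; without replicate 1 or 2 of control at 48 h 0 passed by limma, with 5 and 9. The contrast between the classes was not tested.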

How the data were processed

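RNA from 12 cultures of HK-2 cells was measured on Affymetrix arrays. The authors deposited log2 probe set values made with GCRMA, per the submitters' processing notes; the sources used here state no version or settings. GCRMA adjusts for background by probe sequence, usually with quantile normalization, and it flattens dim values, so a fold against a value under 4 is uncertain. The number of arrays limits the precision.

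Of 54675 probe sets, 41097 carried 1 gene symbol in the platform annotation, 1801 several and 11777 none; those with 1 symbol and a log2 value above 4 on at least 3 arrays were kept (20625), and the probe set with the highest mean stood for its gene (11154 genes). Groups came from the labels. All 12 arrays entered 1 limma model (limma 3.58.1, R 4.3.3) with 4 groups and a weight for each group (1.72 and 1.64 for control and CsA at 12 h, 0.84 and 0.42 at 48 h), with 8 residual degrees of freedom; tests were two-sided, p-values were Benjamini-Hochberg adjusted across all genes, and the threshold was 0.05. The script was checked on generated data beforehand.

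Same-numbered arrays deviated together between CsA and control at 12 h (correlations 0.467 to 0.577 across genes) and between the controls of both times (0.278 to 0.325), but not at 48 h (0.0963, 0.300 and -0.0506), so numbers pair arrays in the first 2 cases only.

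Members and gene lists were chosen with earlier results of these data known. Array values are printed for up to 4 members a role with the smallest p at 48 h among those past the threshold in any contrast, and for up to 3 genes of each pathway list, with E2F1 and RB1 always; other values, among them those of CDC6 and CDC45, were picked after they had been seen. The labels call the replicates biological. Alternatives were other weights, the arrays of 1 time alone, replicate blocks, other filters and probe set rules, centring, trend and robust priors, and leaving out each array. Promoter windows came from a RefSeq table on GRCh38.p14.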

Additional observations from a re-analysis of the deposited data

Results flagged for a closer look

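The effect of CsA differed between 12 h and 48 h in 3 of the replication genes by the test of the difference itself (limma, all 12 arrays). The log2 difference of effects was -0.97 in MCM4, -0.97 in MCM5 and -0.98 in MCM6, with effects near 0 at 12 h and about 1 log2 unit of loss at 48 h. Of the 12 fits that each left out 1 array, MCM4 lost its call in 6, MCM6 in 8 and MCM5 in 10, while every fit kept the sign. MCM5 also lost its call with the replicate block within each time (adjusted p 0.0772), with equal weights (adjusted p 0.069) and with no filter (adjusted p 0.164). When a gene was taken as the average over its probe sets, none of the 3 passed by limma, at adjusted p of 0.104 in MCM4, 0.0534 in MCM6 and 0.09 in MCM5. Both replicate 1 arrays at 48 h had low poly-A controls, and without both of them none of the 3 passed; the part of those controls in the result was not tested.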

How the results depend on the processing

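For CsA at 48 h 13 members passed, where 407 of all 11154 genes passed lower and 163 higher. Equal weights gave 21 members (1795 of all genes in either direction) and a weight for each array 33 (2981). No filter gave 5 (196 of 19775 genes), and the arrays at 48 h alone 0 (47). The fit without both 48 h replicate 1 arrays gave 0 members and 0 genes. Leaving out 1 array gave 0 to 32 members, with 0 to 1447 of all genes. For the difference of the CsA effects 3 members passed, where 66 of all genes passed lower and 16 higher. A weight for each array gave 21 (1199 of all genes in either direction), trend and robust priors 8 (187), and centring each array on its median 5 (112). The replicate block over all arrays gave 5 (311) and the block within each time 5 (309). The mean of all probe sets gave 1 (80), and the fit without both 48 h replicate 1 arrays 0 (0). Leaving out 1 array gave 0 to 19 members (0 to 455). Fits with arrays left out had fewer arrays, and the fit with no filter had more genes tested. Leaving out 1 CsA array at 48 h moved the count at 48 h both ways, to 32 without replicate 3 and 0 without replicate 1. The cause of these changes in calls was not tested. For control at 48 h against 12 h, where 46 passed, testing every probe set on its own gave 70 of 78 probe sets. The count over all probe sets is not given here. With 1 array left out, 44 to 46 members passed, beside 4732 to 5659 of all 11154 genes in either direction. The median change of the members at 12 h was -0.0857, and -0.0896 to -0.0542 when 1 array was left out. Other medians ranged, without 1 array, from -0.80 to -0.49 for CsA at 48 h, from -0.70 to -0.42 for the difference and from -1.69 to -1.52 for the controls. The replicate block moved the count at 48 h to 12 (within each time) and 14 (over all arrays), with FEN1 the call lost in both. Over all genes these fits called 649 and 710 in either direction. The 48 h arrays alone without replicate 3 of CsA and the pathway lists with each array left out were added after seeing the data. Over 2430 values of single members under these alternatives, 2240 stayed on the same side of the threshold, 103 lost and 87 gained a call, and 0 called values changed sign. These values pool the 4 contrasts and cover only members printed on all 12 arrays, so MCM2 and MCM3 are left out. In the control time contrast only CDT1 lost a call, and the other losses were in the CsA contrasts. For CsA at 48 h, leaving out 1 array lost between 1 of 12 calls in MCM4 and 10 of 12 in PCNA. Arrays near a log2 value of 4 limit what can be said of ORC1, GINS4, FAM111B, CDC45 and MCM10.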
